A study of Schizosaccharomyces pombe with 9 samples.

Results

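The genes described here are 159 protein-coding genes of the fission yeast Schizosaccharomyces pombe whose share of sequencing reads was higher in asp1-D333A than in wild type (WT) and stayed near WT in an aps1 deletion. They were chosen from the measured values. The share of a gene is given as CPM, its count divided by the total of its library and put on the same scale in all libraries. A gene was taken when its mean over 9 libraries was at least 3 CPM, its asp1-D333A mean was at least 1.8 times the WT mean, and no asp1-D333A library overlapped a WT library. Its aps1 deletion mean also had to lie above 0.77 and below 1.3 times the WT mean. Genes of the clones SPAC212, SPAC977, SPAC1F8, SPAC11D3, SPAC869, SPAC186, SPAC750 and SPBC1348, and of the SPBPB and SPBCPT clones, were left out. The 159 came from 4772 coding genes that passed the level minimum, of 5146 coding identifiers and 6986 identifiers in all.

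Polyadenylated RNA was sequenced from log-phase cells grown in YES, a rich medium, at 30 °C. There were 3 libraries of asp1-D333A (replicates 1, 2 and 3), 3 of the aps1 deletion (replicates 1, 2 and 3) and 3 of WT (replicates 4, 5 and 6). The labels do not say whether replicates came from separate cultures, so p-values measure the spread between these libraries, which may be technical. Library totals ran from 18244492 to 22999732 counts. In asp1-D333A the enzyme Asp1 carries the D333A change in its kinase domain, and the aps1 strain lacks the gene aps1. Each genotype is 1 strain, so that a difference between groups cannot be told apart from a difference between strains.

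Inositol pyrophosphates are small signalling molecules in which an inositol ring carries chains of phosphate. Asp1 has a kinase domain that makes them and a phosphatase domain that removes the same phosphate, and Aps1 is a hydrolase of the Nudix family that breaks them down. The D333A change removes the kinase activity, so the molecule made by that step is lacking, whereas cells without Aps1 keep more of the substrates that Aps1 breaks down. In fission yeast these molecules are known for setting the level of the genes of phosphate uptake, among them pho1 and pho84, through the termination of transcription of long non-coding RNAs upstream of them. The series compares both mutants with WT.

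As a check of the labels, aps1 had 11.3, 7.03 and 7.66 CPM in the aps1 deletion, against 144, 126 and 130 CPM in WT. It had 88.7, 91.1 and 92.7 CPM in asp1-D333A, below every WT library. There it was called lower than in WT (log2 change -0.69, SE 0.10, adjusted p 7.2e-05 by edgeR). The point change in asp1 cannot be seen in counts per gene. The gene asp1 had 51.9, 53.2 and 72.9 CPM in asp1-D333A, 65.2, 57.6 and 55.2 CPM in the aps1 deletion, and 47.1, 46.7 and 52.2 CPM in WT. It was called higher in the aps1 deletion than in WT (log2 change 0.34, SE 0.11, adjusted p 0.048 by edgeR), a call lost without any 1 WT or aps1 deletion library (adjusted p 0.068 to 0.13 by edgeR). Between asp1-D333A and WT its libraries overlapped, with a log2 change of 0.15 (SE 0.11).

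Together the 159 genes took 1.68% to 1.74% of all counts in the asp1-D333A libraries. They took 0.622% to 0.665% in the aps1 deletion libraries and 0.676% to 0.743% in the WT libraries. The ratio of asp1-D333A to WT had a median of 2.01 and quartiles of 1.88 and 2.34, against a median of 1.06 over all 4772 coding genes. It was at least 2 in 82 genes and at least 3 in 13, with the highest value, 5.47, in cta3. All of this restates the choice. The same holds for the count of calls in the fit across all genes, the quasi-likelihood F test of edgeR at a Benjamini-Hochberg adjusted p of 0.05. That test called 158 of the 159 higher in asp1-D333A than in WT, where 30.3% of the 6147 genes tested were called higher. Only psi1 was not called. In bulk RNA, more cells that express a gene cannot be told apart from more RNA per cell.

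In the aps1 deletion the ratio to WT had a median of 0.910 and ran between 0.771 and 1.24. It lay below 1 in 123 of the 159 genes and above 1 in 36. The libraries of the aps1 deletion and WT overlapped for 128 genes. All 3 aps1 deletion libraries lay below all 3 WT libraries for 25 genes, where 20.4% of the 4772 coding genes did so, and above them for 6, where 15.2% did so. In that test abc3, a transporter gene, and hot15, annotated as a mitochondrial import chaperone gene, were called higher in the aps1 deletion than in WT, where 6.73% of all genes tested were called higher. None of the 159 was called lower by edgeR, where 9.83% were called lower; at an unadjusted p under 0.05 edgeR gave 13 lower, and DESeq2 called 0 lower after adjustment and gave 11 lower without it. The aps1 deletion window fixes most of this.

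**Figure D1:**
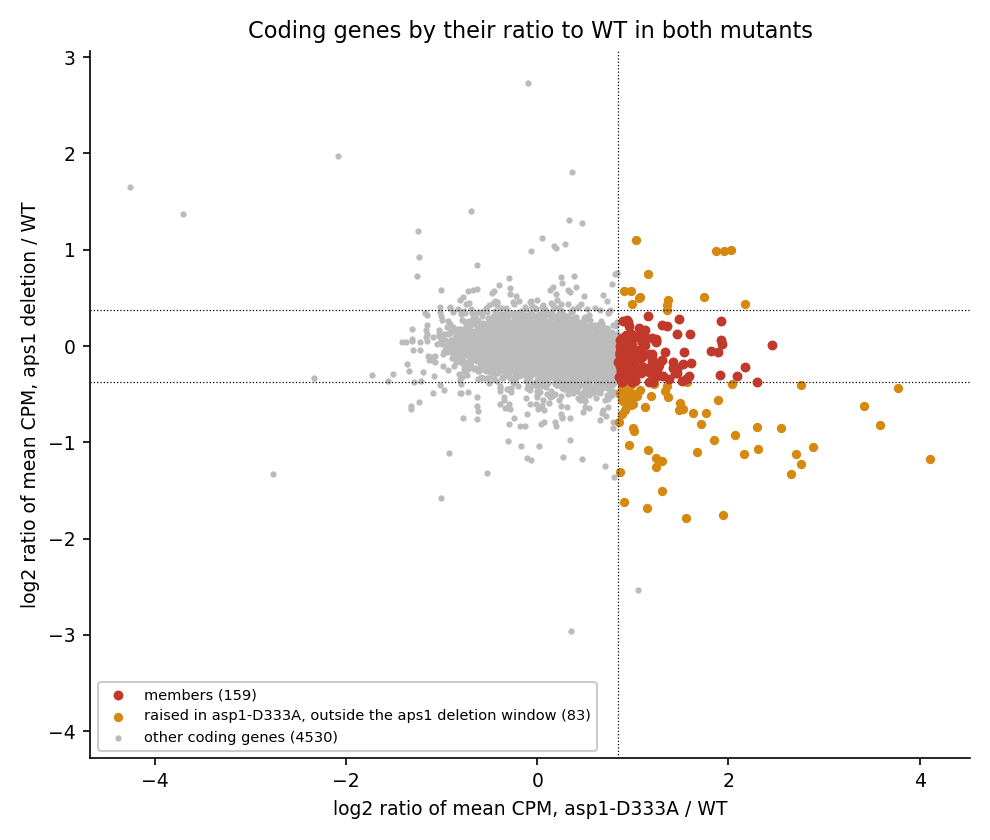
Log2 ratio of mean CPM to WT for 4772 coding genes, asp1-D333A on the horizontal axis and the aps1 deletion on the vertical axis, 1 point a gene and 3 libraries a group. The 159 members (red) fill the window right of the 1.8 ratio line and between the 0.77 and 1.3 lines, and the 83 other coding genes raised in asp1-D333A (orange) lie above or below it, 68 of them below.

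The members are a part of a larger set. In all 242 coding genes (5.07% of the 4772) met the asp1-D333A criteria with any aps1 deletion ratio. Of these, 68 had an aps1 deletion ratio of 0.77 or less and 15 a ratio of 1.3 or more. The direct comparison of asp1-D333A with the aps1 deletion called 158 of the 159 higher, where 34.9% of all genes tested were called higher, and every asp1-D333A library lay above every aps1 deletion library for all 159, where 41.3% of the 4772 did so. The asp1-D333A libraries are the ones that chose the genes, so this contrast is a description as well.

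The limits cut through a continuous range. Just inside the 1.8 limit lay pvg5 (1.801), a gene of cell-wall galactose pyruvylation, rec6 (1.814), a meiotic recombination gene, and SPAC6F6.19 (1.815), which encodes a G-patch RNA-binding protein. Just outside lay wtf5 (1.795), a gene of the wtf family of spore killers, atg2402 (1.793) and the copper transporter gene ccc2 (1.792). At the lower aps1 deletion limit, zym1 and dad1 (both 0.7709) were inside and SPCC569.09 (0.7699) was outside. At the upper limit, mpn1 (1.24) and caf5 (1.22) were inside and uck2 (1.301) was outside. With library sizes scaled by TMM instead of totals, which lowers the median log2 change of all genes between asp1-D333A and WT from 0.14 to 0.01, the same rule gave 91 genes, 86 of them among the 159. With totals the share of calls that were higher in asp1-D333A was 63.7%, and with TMM it was 49.6%.

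Each asp1-D333A or WT library was left out of the choice in turn, the genes were chosen again on the rest, and the ratio was taken between the left-out library and the mean of the opposite group. The opposite group still took part in the choice, so these ratios are selected on that side and are a description. For the left-out asp1-D333A libraries 1, 2 and 3 the chosen genes had a median ratio of 1.91, 1.91 and 2.08. For the left-out WT libraries 4, 5 and 6 it was 2.22, 2.03 and 1.70. The share that reached 1.8 was 69.3%, 59.0% and 78.4% for the asp1-D333A libraries and 89.6%, 85.0% and 37.8% for the WT libraries, where between 3.65% and 8.55% of all eligible coding genes reached it. WT replicate 6 was the library nearest to asp1-D333A for these genes, and without it 238 genes were chosen.

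The libraries of each group were not level. Taken as the median over the 159 genes of the ratio to the WT mean, asp1-D333A replicates 1, 2 and 3 stood at 1.97, 2.00 and 2.12. The aps1 deletion replicates 1, 2 and 3 stood at 1.01, 0.885 and 0.826, and WT replicates 4, 5 and 6 at 0.933, 0.989 and 1.09. WT replicate 6 was the highest WT library for 115 of the genes, asp1-D333A replicate 3 the highest of its group for 90, and aps1 deletion replicate 1 the highest of its group for 119.

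**Figure D2:**
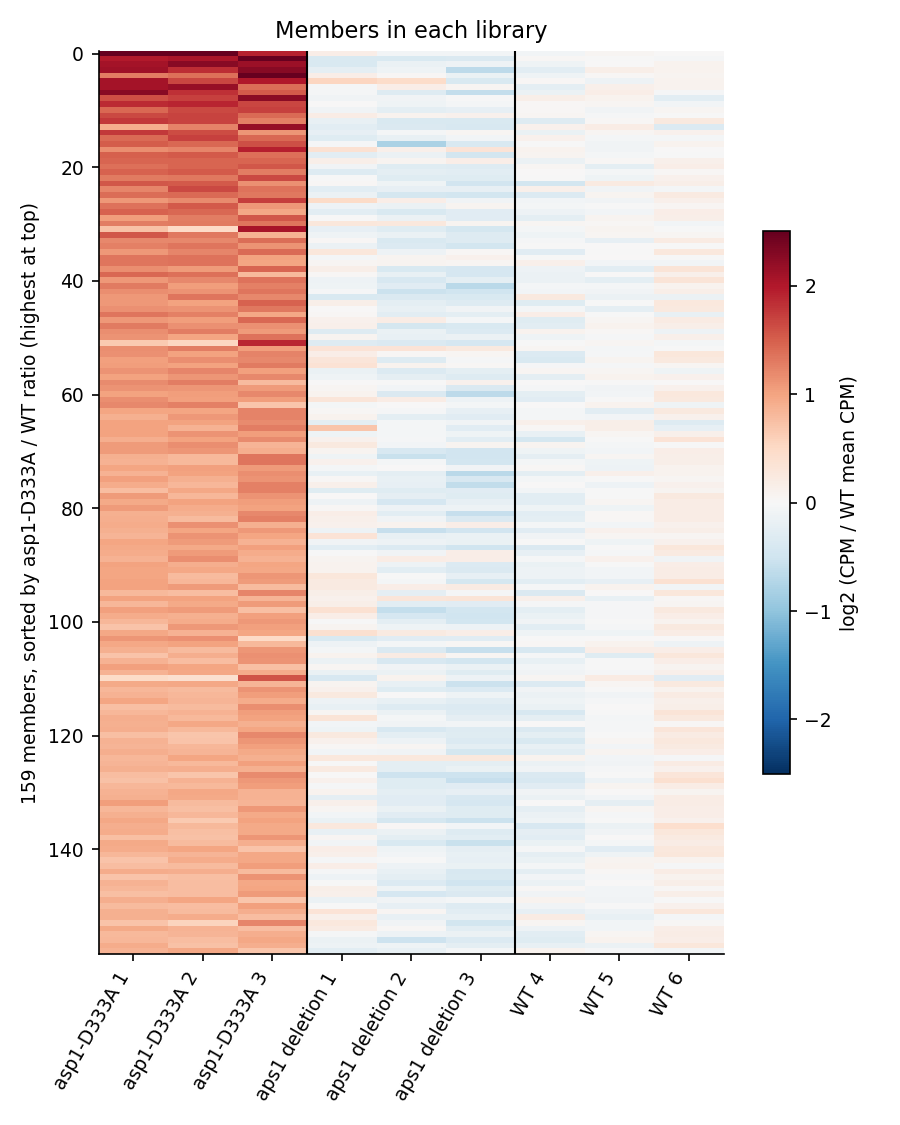
Log2 of CPM over the WT mean for the 159 members (rows, highest asp1-D333A to WT ratio at the top) in each of the 9 libraries (columns). All 3 asp1-D333A columns are red for every member, and single rows are darkest in asp1-D333A replicate 3.

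Genes that answer to oxidants in fission yeast stood among the members with the largest ratios and the highest levels. Pap1 is the transcription factor that enters the nucleus when hydrogen peroxide or certain drugs are present, and it raises genes of detoxification and drug export. Of 12 measured genes on a list of Pap1 targets and Pap1 itself, obr1, gst2 and caf5 were members.

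The gene obr1 encodes an NAD(P)H quinone dehydrogenase, an enzyme that reduces quinones. It had 3354, 3837 and 3481 CPM in asp1-D333A, 607, 707 and 720 CPM in the aps1 deletion, and 735, 796 and 840 CPM in WT. The asp1-D333A libraries were far above the rest, and the aps1 deletion libraries lay below each WT library. The log2 difference between asp1-D333A and WT was 2.037 (SE 0.11). Per kilobase of annotated transcript obr1 stood at 4066 CPM in asp1-D333A, second among the members after rpl39 at 4587.

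The gene gst2 encodes a glutathione S-transferase, which joins glutathione to reactive compounds. It had 547, 573 and 926 CPM in asp1-D333A, 107, 107 and 107 CPM in the aps1 deletion, and 141, 138 and 136 CPM in WT. Replicate 3 was the highest of the asp1-D333A libraries, and the ratio to WT was 4.93 with it and 4.05 without it. The gene caf5 is annotated as a plasma membrane transporter of the spermine family. It had 82.0, 85.5 and 141 CPM in asp1-D333A, 48.0, 39.9 and 46.3 CPM in the aps1 deletion, and 38.9, 34.4 and 36.9 CPM in WT. It was 1 of 6 members in which all aps1 deletion libraries exceeded all WT libraries.

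The other genes of the Pap1 list moved in both directions. By the edgeR F test (Benjamini-Hochberg adjusted over all genes), 7 of the 12 were higher in asp1-D333A and 2 were lower. The 7 include obr1, gst2 and caf5, which the rule chose for being higher. Of all genes tested 30.3% were called higher and 30.8% lower. The median log2 change of the list, members included, was 0.34 against 0.01 over all genes. The sulfiredoxin gene srx1, which restores oxidised peroxiredoxin, had 74.8, 89.9 and 74.5 CPM in asp1-D333A, 6.38, 5.29 and 5.19 CPM in the aps1 deletion, and 13.7, 11.9 and 11.0 CPM in WT. Its log2 change was 2.58 (SE 0.12, adjusted p 2.9e-09) in asp1-D333A and -1.06 (SE 0.13, adjusted p 0.00015) in the aps1 deletion, both from the edgeR fit, so the aps1 deletion window keeps it out of the members. The peroxiredoxin gene tpx1 (log2 change -0.59, SE 0.11, adjusted p 0.00040 by the same edgeR test) and the thioredoxin reductase gene trr1 (-0.49, SE 0.07, adjusted p 6.2e-05) fell in asp1-D333A. For pap1 itself the log2 change was 0.00 (SE 0.07) in the same comparison.

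Other members with redox functions were picked by their annotation after their values were seen. The NADH-dependent flavin oxidoreductase SPBC23G7.10c had 35.8, 29.7 and 39.8 CPM in asp1-D333A, 7.09, 7.65 and 5.29 CPM in the aps1 deletion, and 6.85, 9.17 and 8.78 CPM in WT, a ratio of 4.24 between asp1-D333A and WT. SPBC12C2.04, an NAD-binding dehydrogenase family gene, had 588, 599 and 470 CPM in asp1-D333A, 226, 243 and 252 CPM in the aps1 deletion, and 232, 236 and 231 CPM in WT. In both genes the aps1 deletion and WT libraries overlapped. The aldo/keto reductase SPBC215.11c averaged 44.1 ± 11.1 CPM in asp1-D333A, 19.9 ± 3.97 in the aps1 deletion and 17.2 ± 1.46 in WT (SD, n = 3 each).

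A gene of glutathione synthesis, gcs2, and an ABC transporter gene, abc3, were also picked after their values were seen. What abc3 carries is not shown by these data. The regulatory subunit of the first enzyme of glutathione synthesis, gcs2, averaged 125 ± 24.7 CPM in asp1-D333A, 63.1 ± 13.7 in the aps1 deletion and 66.5 ± 10.4 in WT (SD, n = 3 each). The ABC transporter gene abc3 had 124, 126 and 129 CPM in asp1-D333A, 62.9, 61.9 and 54.1 CPM in the aps1 deletion, and 53.1, 52.2 and 48.8 CPM in WT. It is the longest member, with 4820 exonic nucleotides. Its libraries did not overlap between any of the groups. The gene oxs1, annotated as a coactivator of the oxidative stress response, averaged 117 ± 21.3 CPM in asp1-D333A, 46.7 ± 8.64 in the aps1 deletion and 50.8 ± 10.1 in WT (SD, n = 3 each).

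**Figure D3:**
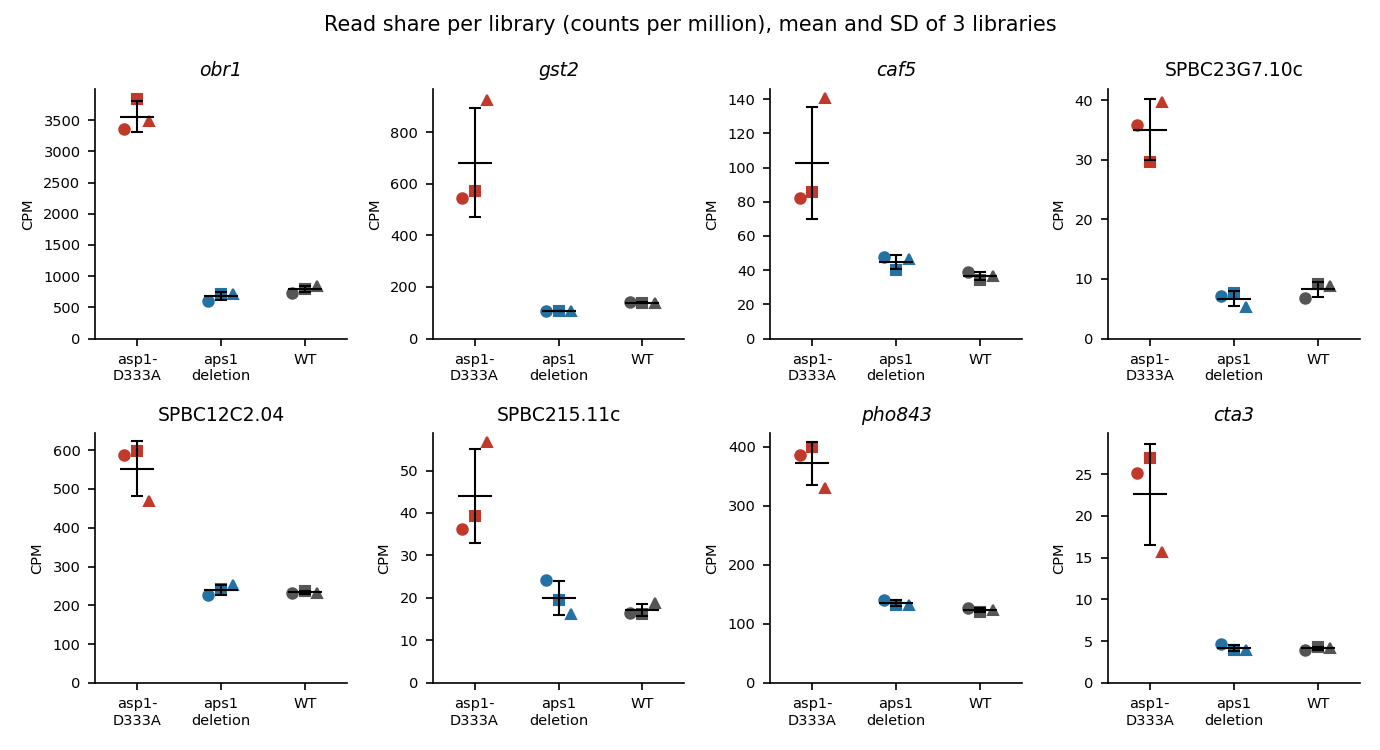
CPM of 8 members in each library, with asp1-D333A (red), the aps1 deletion (blue) and WT (grey) from left to right, the mean as a bar and the SD of 3 libraries as whiskers, circle, square and triangle marking the libraries of a group in number order. In all 8 the asp1-D333A points lie above the others, at 3354 to 3837 CPM for obr1 and 15.7 to 27.0 CPM for cta3, and replicate 3 (triangle) is highest for gst2, caf5, SPBC23G7.10c and SPBC215.11c and lowest for SPBC12C2.04, pho843 and cta3.

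Chaperone members differed between the asp1-D333A libraries. The small heat-shock protein gene hsp16, whose product binds unfolded proteins, had 134, 170 and 326 CPM in asp1-D333A, 59.7, 55.4 and 54.0 CPM in the aps1 deletion, and 77.3, 81.1 and 56.6 CPM in WT. The J-domain co-chaperone gene psi1 had 106, 99.3 and 226 CPM in asp1-D333A, 57.6, 80.0 and 69.1 CPM in the aps1 deletion, and 78.2, 87.0 and 61.9 CPM in WT. The gene hsp78, whose budding yeast counterpart is a mitochondrial disaggregase, had 117, 109 and 276 CPM in asp1-D333A, 59.2, 57.9 and 55.6 CPM in the aps1 deletion, and 73.7, 77.4 and 72.3 CPM in WT. In each, asp1-D333A replicate 3 was farther above replicates 1 and 2 than those were above the WT mean. Without replicate 3 the ratio to WT was 2.12 for hsp16, 1.51 for hsp78 and 1.36 for psi1.

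The same held for slt1 and osr1, named for their large spread. The gene slt1 had 65.1, 55.1 and 164 CPM in asp1-D333A, 34.2, 32.0 and 29.1 CPM in the aps1 deletion, and 37.7, 41.2 and 38.7 CPM in WT. The dehydrogenase gene osr1 had 19.1, 20.6 and 50.9 CPM in asp1-D333A, 8.91, 8.11 and 7.11 CPM in the aps1 deletion, and 7.40, 8.13 and 8.26 CPM in WT. Without replicate 3 the ratio of asp1-D333A to WT was 1.53 for slt1, below the limit, and 2.51 for osr1.

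Replicate 3 was at least 1.5 times the mean of replicates 1 and 2 for 10 of the 159 members (6.29%). The same held for 90 of the 4613 other coding genes (1.95%). For 5 members (3.14%) replicate 3 was at most 1/1.5 of that mean. The asp1-D333A mean that chose the members includes replicate 3, so a high value there brings genes in. Without it 36 of the 159 had a ratio under 1.8, and the rule gave 134 genes, 122 of them shared with the 159. Of 12 measured genes on the list of heat shock and chaperones, 3 were higher and 3 lower in asp1-D333A by the edgeR F test (Benjamini-Hochberg adjusted over all genes). Without replicate 3, 3 were higher and 4 lower. With all libraries 30.3% of all genes tested were higher and 30.8% lower. The disaggregase gene hsp104, no member and picked for its high replicate 3, had 68.8, 68.2 and 178 CPM in asp1-D333A, 45.5, 48.1 and 45.5 CPM in the aps1 deletion, and 67.8, 60.4 and 47.8 CPM in WT. What set replicate 3 apart was not tested.

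**Figure D4:**
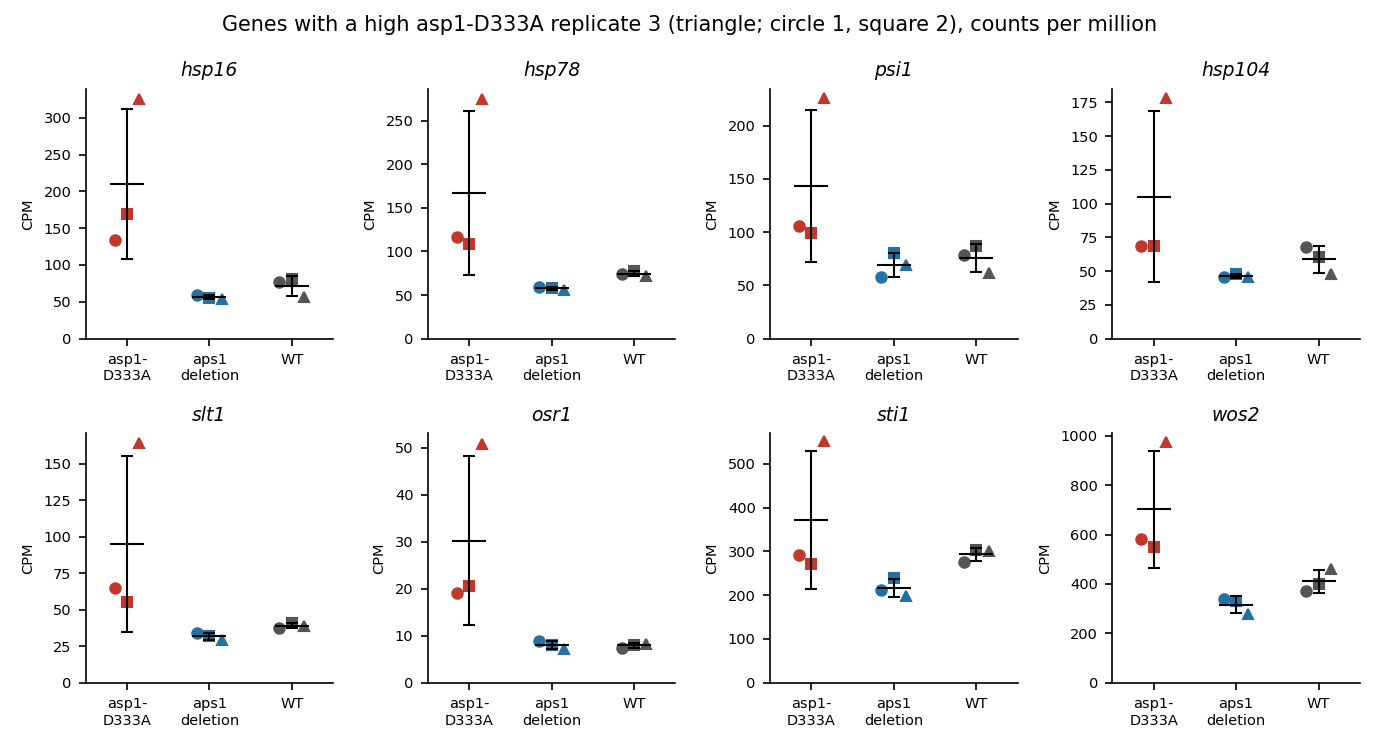
CPM in each library for 5 members (hsp16, hsp78, psi1, slt1, osr1) and 3 chaperone genes that are no members (hsp104, sti1, wos2), with asp1-D333A (red), the aps1 deletion (blue) and WT (grey) from left to right, the mean as a bar and the SD of 3 libraries as whiskers. The 8 genes were picked for a high asp1-D333A replicate 3, so its triangle as the highest point in all 8 panels restates the choice. It stands at 326 CPM for hsp16 and 178 CPM for hsp104.

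Membrane transporters were spread over the range of ratios. The P-type ATPase gene cta3, annotated as a calcium transporter and the member with the largest ratio, had 25.2, 27.0 and 15.7 CPM in asp1-D333A, 4.61, 3.95 and 3.95 CPM in the aps1 deletion, and 3.95, 4.26 and 4.18 CPM in WT. Here replicate 3 was the lowest asp1-D333A library, and the ratio without it was 6.31. On a list of 15 genes of the Sty1 stress response, cta3 included, 3 were higher and 3 lower in asp1-D333A by the edgeR F test. Among all genes tested 30.3% were higher and 30.8% lower. The median log2 change of the list was 0.05, against 0.01 over all genes.

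The phosphate transporter gene pho843 had 387, 399 and 330 CPM in asp1-D333A, 141, 132 and 132 CPM in the aps1 deletion, and 127, 120 and 123 CPM in WT. Its log2 difference between asp1-D333A and WT was 1.46 (SE 0.08). Other genes named as phosphate transporters, picked after their values were seen, fell in asp1-D333A by the edgeR F test. The log2 change was -3.84 (SE 0.10, adjusted p 2.7e-11 by edgeR) for pho84, -0.76 (SE 0.08, adjusted p 2.4e-06) for pho841 and -0.75 (SE 0.11, adjusted p 5.8e-05) for pho842. In the aps1 deletion all 3 rose by the same edgeR test, with log2 changes of 1.43 (SE 0.09, adjusted p 4.1e-07), 0.91 (SE 0.08, adjusted p 5.1e-06) and 0.42 (SE 0.11, adjusted p 0.018). None of 8 genes on the phosphate list was a member, and 1 of them was higher and 5 lower in asp1-D333A. Among all genes tested 30.3% were higher and 30.8% lower.

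Metal genes held 2 members from the lists. The repressor gene php4, whose product lowers genes of iron-using proteins when iron is scarce, had 110, 111 and 85.6 CPM in asp1-D333A, 44.7, 45.1 and 44.7 CPM in the aps1 deletion, and 47.2, 41.4 and 41.2 CPM in WT. The 6 other genes of the iron list that rose in asp1-D333A had aps1 deletion means between 0.242 and 0.566 of WT, outside the window. Of these, the multicopper oxidase gene fio1 averaged 41.1 CPM in asp1-D333A, 4.21 in the aps1 deletion and 9.18 in WT. Of the 12 iron genes 7 were higher and 1 lower in asp1-D333A, and 4 were lower in the aps1 deletion, all by the edgeR F test. The ferric reductase gene frp2, a member picked after its values were seen, averaged 12.3 ± 2.87 CPM in asp1-D333A, 4.44 ± 0.347 in the aps1 deletion and 5.10 ± 0.331 in WT (SD, n = 3 each).

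The metallothionein gene zym1, whose product binds zinc, had 36.1, 43.2 and 39.2 CPM in asp1-D333A, 13.1, 13.3 and 13.1 CPM in the aps1 deletion, and 20.4, 15.5 and 15.4 CPM in WT. All aps1 deletion libraries lay below WT. The ammonium transporter gene amt3 had 10.9, 10.6 and 8.17 CPM in asp1-D333A, 3.75, 3.44 and 2.67 CPM in the aps1 deletion, and 2.69, 4.31 and 4.08 CPM in WT. It was the member on a list of 12 nitrogen starvation genes. Counting amt3, 8 of the 12 were higher and 2 lower in asp1-D333A by the edgeR F test. Of all genes tested 30.3% were higher and 30.8% lower. The spermidine family transporter gene SPCC569.05c averaged 333.2 ± 23.2 CPM in asp1-D333A, 169 ± 9.18 in the aps1 deletion and 175 ± 12.8 in WT (SD, n = 3 each).

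Single members encode enzymes of sugar, amino acid and lipid metabolism. The invertase gene inv1, whose secreted enzyme splits sucrose, had 24.0, 29.4 and 24.5 CPM in asp1-D333A, 7.29, 7.90 and 8.64 CPM in the aps1 deletion, and 9.70, 8.73 and 8.68 CPM in WT. The gluconeogenesis gene fbp1, repressed by glucose, had 10.2, 12.5 and 10.1 CPM in asp1-D333A, 5.82, 6.31 and 6.27 CPM in the aps1 deletion, and 5.48, 6.0 and 5.22 CPM in WT. Both are on a list of 11 measured genes of hexose transport and glucose repression. Counting these 2, 4 were higher and 1 lower in asp1-D333A by the edgeR F test, against 30.3% and 30.8% of all genes tested. The median log2 change of that list was 0.01, the same as over all genes.

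The homocitrate synthase gene lys4, the first step of lysine synthesis, had 2202, 2265 and 1450 CPM in asp1-D333A, 794, 839 and 842 CPM in the aps1 deletion, and 1015, 1030 and 1040 CPM in WT. Replicate 3 was the lowest of the asp1-D333A libraries, and every aps1 deletion library lay below WT. It was the single member among 23 genes of amino acid synthesis. Counting lys4, 9 of these were higher and 6 lower in asp1-D333A by the edgeR F test. Among all genes tested 30.3% were higher and 30.8% lower. The sterol desaturase gene erg32 had 313, 337 and 241 CPM in asp1-D333A, 140, 138 and 149 CPM in the aps1 deletion, and 139, 138 and 139 CPM in WT. It was the single member among 15 measured genes of sterol and fatty acid synthesis, of which 2 were higher and 6 lower by the same edgeR test.

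Among the members with the highest CPM, the ribosomal protein gene rpl39 had 1566, 1512 and 1298 CPM in asp1-D333A, 795, 721 and 680 CPM in the aps1 deletion, and 734, 765 and 801 CPM in WT. The oligosaccharyltransferase gene ost2, which serves the addition of sugar chains to proteins, had 468, 494 and 471 CPM in asp1-D333A, 243, 240 and 243 CPM in the aps1 deletion, and 255, 249 and 259 CPM in WT. The dipeptidyl peptidase gene dpe1 had 381, 395 and 332 CPM in asp1-D333A, 110, 115 and 113 CPM in the aps1 deletion, and 138, 133 and 139 CPM in WT. The asp1-D333A libraries of all 3 stood above every aps1 deletion and WT library. The hydrolase gene SPAC23C11.06c averaged 135 ± 11.1 CPM in asp1-D333A, 37.1 ± 1.36 in the aps1 deletion and 38.3 ± 1.58 in WT (SD, n = 3 each), a ratio of 3.53 between asp1-D333A and WT.

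Among the other members of the top 20 by ratio, the G protein beta subunit gene gnr1 had 15.9, 12.03 and 15.1 CPM in asp1-D333A, 5.47, 5.18 and 2.91 CPM in the aps1 deletion, and 3.84, 3.47 and 4.03 CPM in WT. The F-box protein gene pof14 had 20.3, 23.5 and 24.5 CPM in asp1-D333A, 6.99, 6.31 and 6.52 CPM in the aps1 deletion, and 7.67, 7.04 and 7.70 CPM in WT. The copper chaperone gene cox19, which serves the assembly of cytochrome oxidase, had 15.05, 15.11 and 15.04 CPM in asp1-D333A, 6.03, 5.75 and 6.13 CPM in the aps1 deletion, and 4.93, 5.55 and 5.94 CPM in WT. The aps1 deletion libraries overlapped WT for gnr1 and lay below WT for pof14. The genes mug125 and mug147, both named for a rise in meiosis, had ratios of 3.75 and 3.70. The uncharacterized genes SPCC70.04c, SPCPB16A4.06c, SPAPB18E9.04c, SPAC1093.07 and SPAC1705.02 had ratios of 3.795, 3.01, 2.89, 2.86 and 2.76.

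Genes of DNA repair, replication and chromosome segregation were also among the members, and most were picked after their values were seen. The gene rad50, a subunit of the Mre11 complex that binds broken DNA ends, had 28.9, 27.1 and 34.1 CPM in asp1-D333A, 16.8, 14.4 and 13.1 CPM in the aps1 deletion, and 13.8, 16.7 and 18.02 CPM in WT. Its partner nbs1 had 22.1, 21.4 and 29.4 CPM in asp1-D333A, 13.8, 10.7 and 12.3 CPM in the aps1 deletion, and 9.76, 12.6 and 15.3 CPM in WT. The remaining subunit gene, mre11, was no member, with a log2 change of 0.40 (SE 0.10, adjusted p 0.0035 in the edgeR fit). Ratios for the repair genes xrc4, mag1 and rhp14 were 2.40, 2.11 and 1.87.

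Subunits of the same complex were not all alike, in a comparison of partners chosen after the members were known and tested in the same edgeR fit. In the checkpoint clamp, hus1 was a member with 23.3, 23.9 and 25.04 CPM in asp1-D333A, 13.1, 12.2 and 12 CPM in the aps1 deletion, and 11.0, 13.6 and 15.1 CPM in WT. Its partner rad9 had a log2 change of 0.37 (SE 0.12, adjusted p 0.015 by edgeR) in asp1-D333A, and its partner rad1 one of -0.46 (SE 0.10, adjusted p 0.00095). In the GINS complex of the replicative helicase, psf2 was a member with a ratio of 1.85, and psf1 fell in asp1-D333A by 0.44 on the log2 scale (SE 0.08, adjusted p 0.00054 by edgeR). For sld5 and psf3 the log2 changes were 0.11 (SE 0.08) and -0.15 (SE 0.11), neither past the threshold.

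The DASH complex, which couples kinetochores to microtubules, had 1 member, dad1, at 10.3 ± 0.672 CPM in asp1-D333A, 3.99 ± 0.680 in the aps1 deletion and 5.17 ± 0.826 in WT (SD, n = 3 each). Of its 9 other subunits, 3 were called higher in asp1-D333A (dad4, dam1 and spc34) and 4 lower (dad2, dad3, dad5 and duo1) by the edgeR F test. Among all genes tested 30.3% were called higher and 30.8% lower. The histone exchange complex Swr1 had the members swc2, with a ratio of 1.96, and vps71, with a ratio of 2.19. A further subunit gene, arp6, had a ratio of 1.97 between asp1-D333A and WT but one of 1.48 between the aps1 deletion and WT, outside the window. The subunit gene swc5 was called higher in asp1-D333A (log2 change 0.52, SE 0.14, adjusted p 0.0058 by edgeR). For the catalytic subunit gene swr1 the log2 change was 0.12 (SE 0.12) in asp1-D333A, not past the threshold. Nor were swc3, swc4, yaf9, rvb1 and rvb2 called. For the catalytic subunit gene of the NatA acetyltransferase, naa10, a member, the ratio was 1.89, and for its partner naa15 it was 0.914. The asp1-D333A libraries of naa15, at 90.3, 86.1 and 135 CPM, overlapped WT, and its log2 change of -0.27 (SE 0.14) was not called.

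Genes of the ubiquitin-like pathway and of mitochondria were further members, picked after their values were seen. The ubiquitin-like modifier gene ned8 averaged 21.4 ± 1.33 CPM in asp1-D333A, 8.11 ± 1.85 in the aps1 deletion and 9.38 ± 1.40 in WT (SD, n = 3 each). The cullin-RING subunit gene rbx1 and the signalosome gene csn2 had ratios of 2.14 and 2.00. Among the genes for mitochondrial proteins, coa5 and cox16 of cytochrome oxidase assembly had ratios of 2.60 and 1.93, and erv1, a sulfhydryl oxidase of protein import, had 2.37. The import chaperone gene tim9 had 138, 148 and 144 CPM in asp1-D333A, 67.6, 68.7 and 61.1 CPM in the aps1 deletion, and 71.0, 73.6 and 82.0 CPM in WT. Its partner tim10 rose in asp1-D333A by a log2 change of 0.44 (SE 0.11, adjusted p 0.0025 in the edgeR fit), and so did tim8, by 0.40 (SE 0.10, adjusted p 0.0037). For the related chaperone gene tim13 the log2 change was 0.02 (SE 0.08, adjusted p 0.82 by edgeR).

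Meiotic genes gave 1 member on a list of transcripts that the RNA-binding protein Mmi1 marks for removal in growing cells. The gene rec10, for a protein of the meiotic chromosome axis, had 17.7, 18.3 and 15.96 CPM in asp1-D333A, 8.91, 6.47 and 6.08 CPM in the aps1 deletion, and 7.84, 8.08 and 9.55 CPM in WT. Of 9 tested genes on that list, rec10 included, 3 were higher and 1 lower in asp1-D333A by the edgeR F test. Over all genes tested 30.3% were higher and 30.8% lower. No gene of the lists for mating, spores, sulfur, thiamine, cell separation, S phase, flocculins or strain markers was a member.

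The members differed from other coding genes in structure and level, as read from the RefSeq annotation of assembly ASM294v3. Their median exonic length was 1267 nucleotides, against 1756 in the 4613 other coding genes, and 34.6% were shorter than 1000 nucleotides, against 17.8%. The 68 genes raised in asp1-D333A with an aps1 deletion ratio of 0.77 or less had a median of 1278 nucleotides, with 29.4% under 1000. The shortest was wip1, a gene of a kinetochore protein, with 222. The share of coding genes that were members was 6.18% under 750 nucleotides and 1.19% at 3000 or more. Introns were present in 48.4% of the members and 49.6% of the others, but in 19.1% of those 68 genes. No test was made of these shares.

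Members were mostly genes of low level. Their median WT level was 16.9 CPM, against 80.8 CPM in the others, and 111 of the 159 were among the 954 coding genes with the lowest WT level (the lowest 20%), 11.6% of them. Products annotated as uncharacterized accounted for 18 of the members (11.3%) and 5.44% of the others. In the 68 genes with the lower aps1 deletion ratio the median WT level was 15.96 CPM and the uncharacterized share 25%, so low level and such products are not particular to the members. Length and level moved with the libraries too. Spearman's rho between exonic length and the log ratio to the WT mean was taken across 4771 coding genes. These share each library and are not independent. For a WT library the ratio was taken to the mean of the remaining WT libraries. The rho was -0.25, -0.28 and -0.24 in asp1-D333A replicates 1, 2 and 3. It was 0.11, 0.07 and 0.15 in the aps1 deletion replicates and 0.22, 0.02 and -0.24 in WT replicates 4, 5 and 6. WT replicate 6, the WT library in which most members were highest, thus had the same sign as asp1-D333A. Between WT level and the same log ratio, rho was -0.31, -0.30 and -0.45 in asp1-D333A replicates 1, 2 and 3. It was -0.19, 0.17 and 0.30 in the aps1 deletion replicates and 0.28, 0.18 and -0.40 in WT replicates 4, 5 and 6. The WT level enters the ratio as well, so these values are a description. The median log2 ratio of genes shorter than 1000 nucleotides was 0.25 to 0.28 in asp1-D333A and -0.04 to 0.06 in WT. Whether RNA length or quality has a part in the choice of these genes was not tested.

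**Figure D5:**
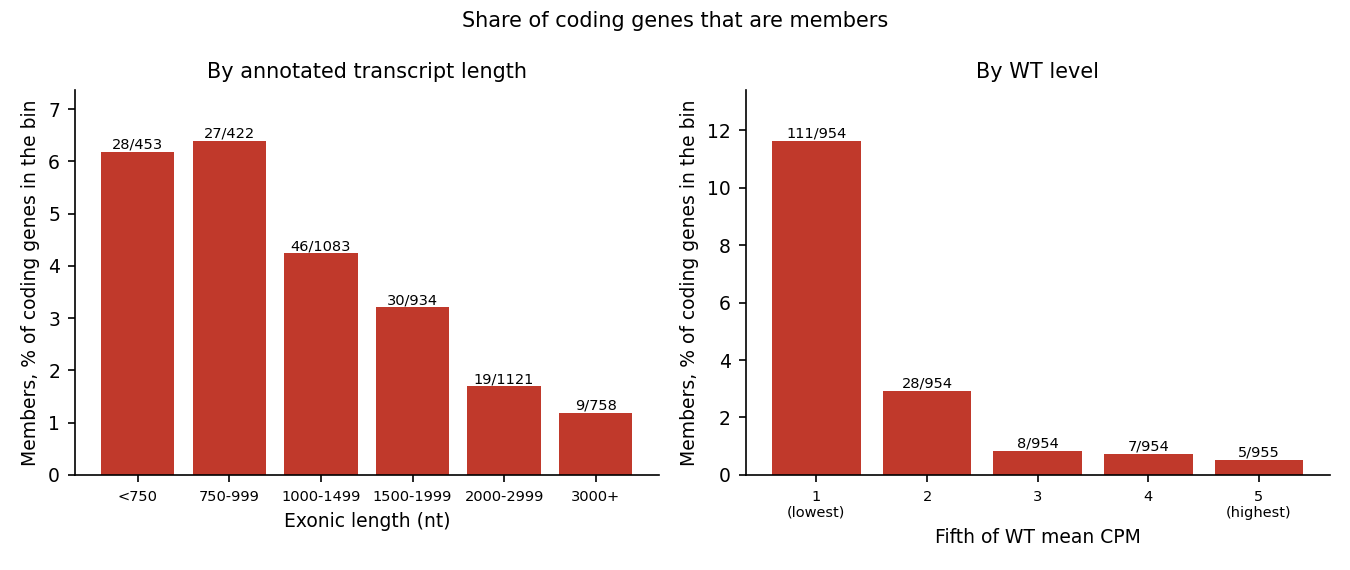
Share of coding genes that are members, in percent, by exonic length in nucleotides (left) and by WT mean CPM in 5 bins of equal size (right), with the number of members over the number of genes above each bar. The share is 6.18% in the shortest genes and 1.19% in the longest, and 11.6% in the lowest bin by WT level and 0.524% in the highest.

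Members were scattered over the genome, with 74 on chromosome I, 53 on II and 32 on III, shares of 46.5%, 33.3% and 20.1% against 45.0%, 36.7% and 18.3% of the other coding genes. In the RefSeq gene order 3 pairs of members were neighbours. The divergent pair agp3, an amino acid transporter gene, and dpe2, a dipeptidyl peptidase gene, lay on chromosome III, with 2.19 for dpe2 and 54.9, 59.4 and 47.4 CPM in asp1-D333A, 31.3, 25.4 and 27.6 CPM in the aps1 deletion, and 27.5, 25.6 and 26.1 CPM in WT for agp3. The convergent pair emc5 and rad50, which overlap in the annotation, had ratios of 1.865 and 1.857. The pair SPAC4H3.03c and SPAC4H3.04c, on the same strand, had ratios of 2.68 and 1.99. Neighbouring genes in general had median ratios of 1.08 to 1.10 by position and strand, against 1.06 over all eligible coding genes.

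Many members overlap another annotated feature, and the sources used here do not give the strand setting of the counting, so reads of overlapping features may have been shared or lost. In all 58 members overlap another coding gene, 53 of them one on the opposite strand. The share of other coding genes with such an overlap was not counted, so it is not known whether the members differ in this. A non-coding RNA on the opposite strand overlaps 45 members (28.3%), against 18.2% of the other coding genes. The fit tested 45 such RNAs opposite a member, of which 22 were higher and 5 lower in asp1-D333A by the edgeR F test, where 459 of all 1078 non-coding RNAs tested were higher and 120 lower. Near-identical copies, at 95% identity over 100 nucleotides, exist for SPCC569.01c, wtf20 and SPBC337.02c, and their values are uncertain.

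SPNCRNA.1027, SPNCRNA.1004, SPNCRNA.667, SPNCRNA.1290 and SPNCRNA.1224, given below, are among the RNAs near members with the largest rise in asp1-D333A. Some other RNAs opposite a member fell or stayed level. SPNCRNA.1090, opposite the aldehyde dehydrogenase gene atd2, had a ratio of 0.577 between asp1-D333A and WT. For SPNCRNA.798, opposite SPAC23C11.06c, it was 0.737, and for SPNCRNA.1374, opposite cta3, it was 0.963. SPNCRNA.1027, opposite hus1, had 38.2, 37.6 and 37.2 CPM in asp1-D333A, 13.5, 10.9 and 10.6 CPM in the aps1 deletion, and 13.7, 13.9 and 16.5 CPM in WT, with a log2 change of 1.22 (SE 0.10). SPNCRNA.1004, opposite SPAC1093.07, had 15.6, 17.3 and 15.7 CPM in asp1-D333A, 5.37, 4.16 and 4.15 CPM in the aps1 deletion, and 4.66, 5.85 and 4.75 CPM in WT, with a log2 change of 1.53 (SE 0.14). All 3 asp1-D333A libraries of SPNCRNA.1027 and SPNCRNA.1004 stood above every other library. SPNCRNA.667, which ends upstream of nab3, a poly(A)-binding protein gene, on the same strand, had 7.67, 9.80 and 7.39 CPM in asp1-D333A, 1.42, 1.75 and 1.28 CPM in the aps1 deletion, and 1.75, 2.68 and 3.36 CPM in WT. The gene nab3 itself had a ratio of 1.93. The RNAs opposite SPCC70.04c (SPNCRNA.1290) and on the same strand as inv1 (SPNCRNA.1224) had ratios of 2.99 and 3.60. Their WT means were low, at 1.27 and 0.454 CPM. Whether reads were shared within these pairs was not tested.

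Promoter letters were searched on both strands, from 250 bases before to 50 after the annotated start, in RefSeq ASM294v3. The letters TTAGTCA, a form of the site described for Pap1, occurred in 9.43% of the members and 4.53% of all 5142 coding promoters, and TTACTAA, the other form, in 16.4% and 11.96%. At least 1 of the 2 was present in 39 members (24.5%), against 15.8% of all coding promoters and 15.5% of the other genes in the lowest 20% by WT level. Among the members, gst2 and caf5 held both forms, and obr1, abc3 and SPBC215.11c held TTAGTCA. The members SPBC12C2.04, gcs2, oxs1 and osr1 held neither form. TTAGTCA also occurred in members of other functions, such as dad1, mag1 and rhp14. The GATA letters TGATAA occurred in 40.9% of the members, 26.8% of all coding promoters and 26.1% of the other genes in the lowest 20%, whereas 23.3% of the members and 24.2% of all coding promoters held AGATAA. The heat-shock letters GAANNTTC occurred in 9.43% of the members, hsp16 and psi1 among them, and in 11.2% of all. TGACGT, the letters of the Atf1 site, occurred in 6.92% and 5.97%. These shares were not tested, and a match is no evidence that a factor binds.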

How the data were processed

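RNA was extracted with hot acid phenol, and poly(A) libraries were made with a stranded TruSeq kit and sequenced as read pairs, per the labels' protocols. The authors deposited 1 table of raw read counts per feature, in whole numbers. The submitters' processing notes name HISAT2 2.1.0, SAMtools, HTSeq 0.10.0, DESeq2 and build ASM294v2. Strand setting and treatment of multiply matching reads are not given in the sources used here. RefSeq ASM294v3, another build, served for names, neighbours, lengths and promoter letters, and no coordinates or sequences are given. It matched 6846 of 6986 identifiers and all 159 members.

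Members were chosen on CPM from column totals. All genes were fitted in R 4.3.3 with edgeR 4.0.16: filterByExpr with a minimum count of 10 left 6147 genes, library sizes were scaled by TMM, and 9 libraries in 3 groups shared robust quasi-likelihood dispersions (common biological coefficient of variation 0.0917). F tests were adjusted by Benjamini-Hochberg over all genes, with calls at 0.05. Log2 changes are from this fit; ratios are of mean CPM. BLAST 2.17.0 found near-identical copies. The fit was run on simulated data with 200 changed genes, whereas 3754 of the 6147 genes were called between asp1-D333A and WT. That run therefore does not test the fit at so many changes. Alternatives, with DESeq2 1.42.0 among them, are in the closing section.

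The members and lists were chosen with earlier results of these data known. Genes were named by rule: the 20 members highest by ratio, the 10 highest by level and members on the lists. Those at the limits, neighbours and the 4 with the largest spread were named too. The rule also covered the 10 with the largest change in a nearby non-coding RNA, but only some of these are given here. Others are said to have been picked after their values were seen. Total counts, 18244492 to 22999732 per library, leave replicate spread as the main error except in the lowest genes.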

Additional observations from a re-analysis of the deposited data

How the results depend on the processing

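The number of genes chosen was 356 with a minimum ratio of 1.6, 82 with 2.0 and 91 with TMM-scaled CPM, and 125 to 238 when 1 library was left out, lowest without WT replicate 4 and highest without WT replicate 6. With a level minimum of 1 or 10 CPM, an aps1 deletion window of 0.83 to 1.2 or the left-out clones kept it was 170, 130, 123 and 163. Calls between the aps1 deletion and WT numbered 1018 and were 597 with coding genes only; with 1 library left out they ran from 539 (without aps1 deletion replicate 2) to 1668 (without asp1-D333A replicate 3). Calls between asp1-D333A and WT were 3270 to 3954 and members called 156 to 158 with 1 library left out. The calls of slt1 and hsp78 were lost without any 1 WT library, without aps1 deletion replicate 2 or 3, and in a fit of 6 libraries. For asp1 the log2 change between asp1-D333A and WT ran from -0.0081 (without asp1-D333A replicate 3) to 0.228 (without replicate 1) with 1 library left out, and with upper-quartile scaling it was 0.32 and was called (adjusted p 0.025, edgeR). Between asp1-D333A and the aps1 deletion it was -0.19, not called; it was 0.00050 with column totals and 0.021 with upper-quartile scaling, neither called, and -0.35, called, without asp1-D333A replicate 3 (adjusted p 0.00069, edgeR). The asp1 call between the aps1 deletion and WT was also lost with column totals, upper-quartile scaling and coding genes only. The cause of these changes was not tested.

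Calls higher in the aps1 deletion than in WT were 40.7% of calls with TMM and 24.8% with totals. The mutants share replicate numbers only: deviations of same-numbered libraries correlated by 0.146, 0.0607 and -0.131, and not every library correlated best with its own number. With the number as a block, 3855 genes were called between the mutants, against 4232. Precision is limited by 3 libraries a group, by 1 strain a genotype and, for members near 3 CPM, by depth.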
